A study of Mus musculus with 12 samples.

Results

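The genes described here encode proteins of the synaptic vesicle and of the machinery that fuses it with the plasma membrane. They are the SV2 paralogs *Sv2a*, *Sv2b* and *Sv2c*, the synaptotagmins *Syt1* and *Syt11*, synaptophysin (*Syp*), synaptobrevin-2 (*Vamp2*) and *Snap25*. The 8 genes were given by symbol, and the set was chosen by the genotype difference of *Sv2c* in the comparison that the authors deposited. The value of that difference was not used here. Of the 8 members, 6 had a mean level among the 15838 genes, whereas *Syt1* and *Snap25* had none.

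The series comprises 12 RNAseq libraries of corneal endothelial cells (CEC) with Descemet membrane, from mice at 10 weeks of age. There are 3 libraries in each of 4 groups: *Slc4a11*+/+ (WT) females, WT males, *Slc4a11*-/- (KO) females and KO males. All are C57BL/6 mice, and the KO carries a targeted germline deletion within *Slc4a11*, the transporter gene of congenital hereditary endothelial dystrophy, so the deletion is not restricted to CEC. The value used here is the authors' mean for each gene, in log2 CPM (read counts scaled to the library size), over all libraries, WT and KO of both sexes together. Such a mean has no spread, and neither genotypes nor sexes were compared here. Levels in CPM were obtained by taking the mean log2 CPM off the log scale, so they are geometric means over the libraries. Any constant that was added to the counts before the log is still in them. It would weigh most on low levels, such as that of *Syp*, and on ratios to them. The depth of each library is unknown, so no interval stands behind any level, and whether neighbours in an order of levels differ was not tested. The mean level of *Slc4a11*, 10.71 log2 CPM, mixes WT and KO and therefore checks no label.

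SV2 proteins are glycosylated, multi-pass membrane proteins of neuronal and endocrine secretory vesicles, related in sequence to sugar transporters. In neurons SV2A is the binding site of the antiepileptic drug levetiracetam, and SV2C is a receptor through which botulinum neurotoxin A enters the cell. Vesicle fusion is carried out by SNARE proteins, with VAMP2 on the vesicle and SNAP25 and syntaxin on the plasma membrane. Synaptotagmin-1 is the calcium sensor that triggers it.

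Because the SV2 genes are paralogs, their coding sequences show how well reads of 50 bases can separate them. In the annotated principal transcripts the coding sequence was 2229 bases long for *Sv2a*, 2052 for *Sv2b* and 2184 for *Sv2c*. *Sv2a* and *Sv2b* were identical at 67.4% of 2052 aligned bases, *Sv2a* and *Sv2c* at 65.3% of 2184, and *Sv2b* and *Sv2c* at 65.1% of 2052. The following stretches of 90 bases are shown because they are the most alike of all windows that aligned without a gap in the 3 genes. Capitals mark the 68 bases (75.6%) that are identical in all 3, and every run of capitals is shorter than a read. The stretches begin at coding base 472 of *Sv2a*, 301 of *Sv2b* and 430 of *Sv2c*.
Sv2a: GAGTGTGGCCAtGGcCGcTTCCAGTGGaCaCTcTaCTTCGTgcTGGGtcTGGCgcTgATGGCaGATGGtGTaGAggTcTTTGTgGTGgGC
Sv2b: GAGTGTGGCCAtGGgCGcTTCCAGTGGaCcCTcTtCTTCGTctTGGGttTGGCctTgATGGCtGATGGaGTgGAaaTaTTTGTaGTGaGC
Sv2c: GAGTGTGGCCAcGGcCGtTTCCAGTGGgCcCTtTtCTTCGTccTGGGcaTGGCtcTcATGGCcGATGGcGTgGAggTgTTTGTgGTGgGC

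The same genes were least alike in a window that begins at coding base 1267 of *Sv2a*, 1096 of *Sv2b* and 1225 of *Sv2c*, where 25.6% of the 90 bases were identical in all 3. Capitals again mark these bases.
Sv2a: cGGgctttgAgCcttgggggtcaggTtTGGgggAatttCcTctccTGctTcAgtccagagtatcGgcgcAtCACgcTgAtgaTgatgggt
Sv2b: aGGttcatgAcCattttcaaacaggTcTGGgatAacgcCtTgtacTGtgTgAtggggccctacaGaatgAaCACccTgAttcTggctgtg
Sv2c: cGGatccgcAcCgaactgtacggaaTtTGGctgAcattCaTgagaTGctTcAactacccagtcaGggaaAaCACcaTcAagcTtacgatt

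The longest exact run shared by the coding sequences of any SV2 pair was 26 bases. It lies between *Sv2b* (from coding base 925) and *Sv2c* (from coding base 1054), and is shown because it is the longest. Sequence outside the coding part and inexact matches were not part of this comparison. The longest run was 18 bases between *Sv2a* and *Sv2c* and 15 between *Sv2a* and *Sv2b*.
Sv2b and Sv2c: AAACATGATGAAGCCTGGATGATTCT

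Over all annotated transcripts, 0 of the 4632 words of 50 bases in *Sv2a* and 0 of the 8371 in *Sv2b* occurred in a transcript of another gene, on either strand. In *Sv2c* 29 of 9597 words (0.302%) did, and the gene sharing most of them was *Kcnh7*, on the opposite strand. A full-length read of an SV2 transcript without errors therefore matches no other SV2 gene.

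Levels were compared between genes as log2 CPM per kb of annotated exon, since a longer transcript yields more reads. On this scale *Sv2a* was the highest of the SV2 genes, *Sv2c* was at the median of all genes and *Sv2b* was low. "All genes" means the 15824 genes that have both a mean level and an annotated length. Annotated genes without a value, such as *Syt1* and *Snap25*, enter neither the median nor the percentiles, which therefore do not rank a gene within the whole genome. Since *Sv2c* was chosen for a difference between genotypes, its mean over WT and KO stands for neither genotype, and the same holds for its percentile and for every ratio to it. *Sv2a* (ENSMUSG00000038486) lies on the plus strand of chromosome 3 from 96181151 to 96195521 (GRCm38) and has 4.64 kb of annotated exon. Its mean level was 5.58 log2 CPM, or 47.8 CPM, which is 3.37 log2 CPM per kb and the 77.4th percentile of the 15824 genes with an annotated length.

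*Sv2c* (ENSMUSG00000051111) spans chromosome 13 from 95954594 to 96132577 on the minus strand. With 9.70 kb of exon it has the longest exonic sequence of the 8 members. Its mean level was 5.06 log2 CPM, or 33.4 CPM, close to that of *Sv2a* before length was considered. Per kb of exon the level of *Sv2c* was 1.78 log2 CPM, at the 49.9th percentile, beside a median of 1.79 over all genes. The level per kb of *Sv2a* was 3.00 times that of *Sv2c*. Within the span of *Sv2c* the annotation places 3 other genes, of which *Gm20075*, on the same strand, had a mean level too.

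*Sv2b* (ENSMUSG00000053025) is transcribed from the minus strand between 75114894 and 75309262 of chromosome 7. It had a mean level of 2.00 log2 CPM, or 3.99 CPM. Divided by its 8.38 kb of exon this is -1.07 log2 CPM per kb, at the 11.8th percentile. The level per kb of *Sv2c* was 7.23 times that of *Sv2b*, and that of *Sv2a* was 21.6 times that of *Sv2b*. The list of SV2 genes and relatives also holds the SV2-related genes *Svop* and *Svopl*, which had no mean level here.

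Of the members with a role in fusion, *Vamp2* had the highest level of the 6 genes. *Vamp2* (ENSMUSG00000020894) is a short gene on the plus strand of chromosome 11, from 69088490 to 69092384, and its product is the vesicle SNARE of regulated secretion. Its mean level was 6.11 log2 CPM, or 69.2 CPM, which is 4.18 log2 CPM per kb and the 88.0th percentile. The closest relatives of *Vamp2*, the vesicle SNARE genes *Vamp1* and *Vamp3*, are identical to it at 75.2% and 70.8% of the aligned coding bases, with no shared run longer than 18 bases. Of the 3892 words of 50 bases in *Vamp2*, 0 occurred in another gene.

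*Syt11* (ENSMUSG00000068923; chromosome 3, 88744700 to 88775164, minus strand) encodes a synaptotagmin that does not bind calcium as synaptotagmin-1 does. Its mean level was 4.58 log2 CPM, or 24.0 CPM, and its level per kb was 2.20 log2 CPM, at the 57.4th percentile. In *Syt11* 311 of 5252 words (5.92%) also occurred in other genes, 186 of them in *1500004A13Rik*. *Syt1* (ENSMUSG00000035864, chromosome 10 from 108497650 to 109010982) has no value here, so the calcium sensor of fast release cannot be placed beside it. Their coding sequences were identical at 50.2% of 1210 aligned bases.

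*Syp* (ENSMUSG00000031144), on the plus strand of chromosome X from 7638471 to 7653256, encodes synaptophysin, an abundant membrane protein of neuronal vesicles that binds VAMP2. It was the lowest of the 6 members, with a mean of -0.47 log2 CPM, or 0.723 CPM. Its level per kb was -2.85 log2 CPM, at a percentile of 1.91, and the level per kb of *Vamp2* was 131 times as high. Reads from *Syp* could in part be those of its antisense neighbour *Gm14703*: 829 of its 5157 words (16.1%) lie in *Gm14703* on the opposite strand. *Gm14703* had no mean level of its own here, and this source of reads was not tested. The libraries were stranded, but whether the counting used the strand is not stated in the sources used here. *Snap25* (ENSMUSG00000027273, chromosome 2 from 136713453 to 136782428), the plasma membrane SNARE that partners with VAMP2, has no value here.

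**Figure D1:**
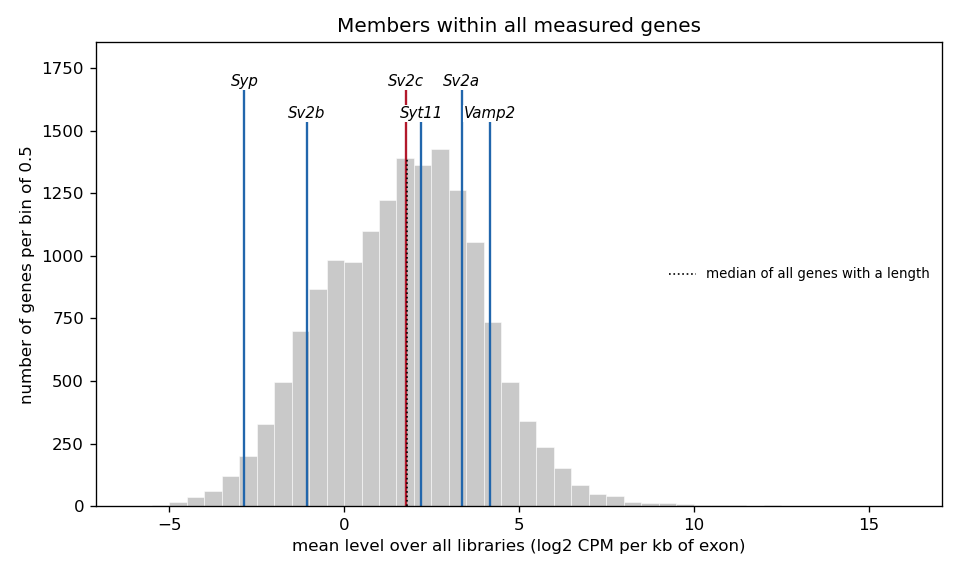
Number of genes (vertical axis, bins of 0.5) by mean level over all libraries in log2 CPM per kb of exon (horizontal axis), with a line at each of the 6 members that have a value and a dotted line at the median of all genes, 1.79. *Syp* and *Sv2b* lie in the lower tail at -2.85 and -1.07, *Sv2c* lies on the median, and *Sv2a* and *Vamp2* lie above it at 3.37 and 4.18.

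The order of the 6 genes by level per kb was *Vamp2*, *Sv2a*, *Syt11*, *Sv2c*, *Sv2b* and *Syp*. The smallest step was between *Syt11* and *Sv2c*, with a ratio of 1.34, and the order of this pair turned when levels were not divided by length. The other steps were larger, with ratios of 1.76 from *Vamp2* to *Sv2a*, 2.24 from *Sv2a* to *Syt11* and 3.43 from *Sv2b* to *Syp*. No test of these steps could be made from means without a spread, and the place of *Sv2c* in the order within WT or within KO was not examined.

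**Figure D2:**
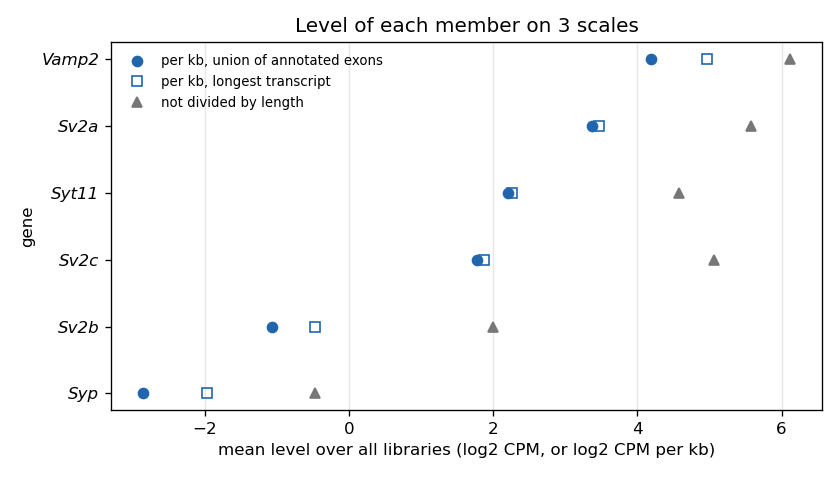
Mean level over all libraries of each of the 6 members with a value (vertical axis) as log2 CPM (triangles), as log2 CPM per kb of all annotated exons (filled circles) and as log2 CPM per kb of the longest transcript (open squares). The order is the same on both scales per kb, whereas *Sv2c* (5.06) lies above *Syt11* (4.58) when length is not considered.

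The wider families place these members among their relatives. Of 17 synaptotagmin genes listed, 11 had a mean level, and the median of these 11 was 0.04 log2 CPM per kb, below the 1.79 of all genes. *Syt9*, a calcium-binding synaptotagmin, stood at 3.61 log2 CPM per kb, above *Syt11* at 2.20. *Syt3* stood at 1.97 and *Syt14* at 0.60 on the same scale. *Syt11* was thus among the 3 of 11 synaptotagmins above the median of all genes.

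Among genes with a value, SNARE genes had a higher median than synaptotagmins. Listed genes without a value enter no list median, and their share differs between the lists. Of 16 listed, 13 had a mean level, with a median of 2.90 log2 CPM per kb, and 9 of the 13 lay above the median of all genes. *Snap47*, a SNAP25 relative found in many tissues, was at 5.12 log2 CPM per kb, *Vamp2* at 4.18, *Snap23*, the broadly expressed counterpart of *Snap25*, at 3.43 and *Stx3*, a plasma membrane syntaxin, at 3.07. The regulators of SNARE assembly and disassembly had values for 11 of 12 genes and a median of 2.60 log2 CPM per kb, with 6 of 11 above the median of all genes. Among them *Napa* and *Nsf*, which take spent SNARE complexes apart, were at 4.22 and 2.60, and *Stxbp3* and *Stxbp2*, which bind syntaxins, at 3.73 and 3.47.

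Among other membrane proteins of vesicles, 10 of 15 genes had a mean level, with a median of -0.31 log2 CPM per kb, and 3 of 10 lay above the median of all genes. *Syngr2*, a synaptogyrin found outside neurons, was at 3.73 log2 CPM per kb, *Sypl*, a synaptophysin relative of non-neuronal cells, at 2.34 and *Syngr1*, a neuronal synaptogyrin, at 2.16. *Syp* was the lowest of the 10. The coding sequences of *Syp* and *Sypl* were identical at 56.5% of 750 aligned bases, with a longest shared run of 10 bases. *Syn3*, a synapsin, was at -0.19.

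**Figure D3:**
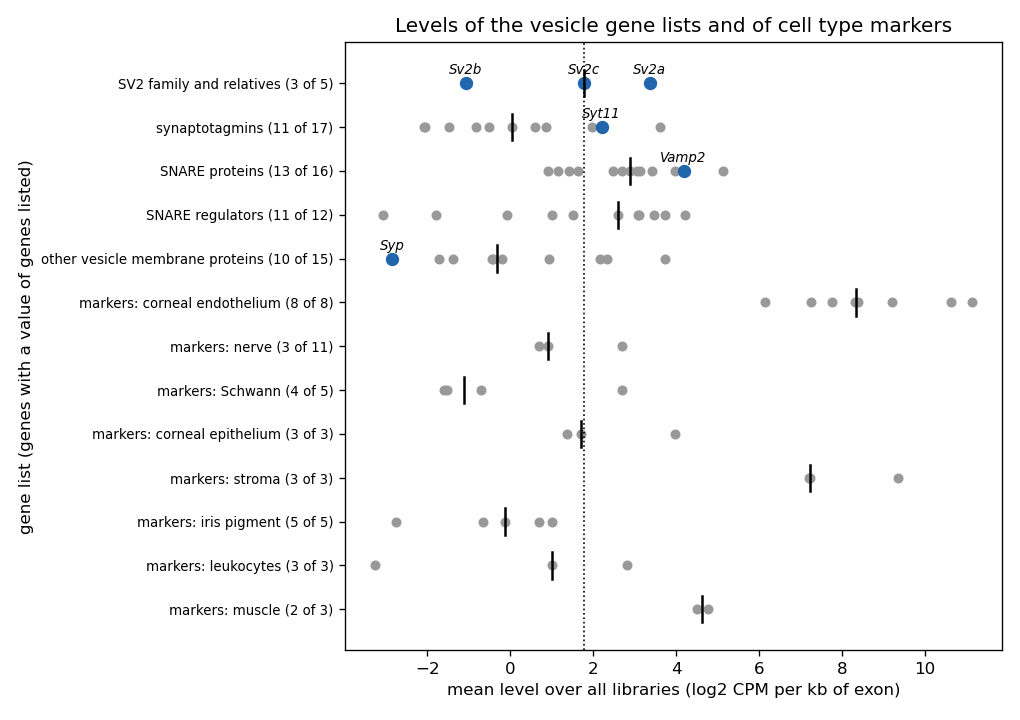
Mean level over all libraries in log2 CPM per kb of exon (horizontal axis) of the genes with a value in each list (vertical axis, with the number having a value of the number listed), where blue points are members of the set, grey points other genes, short bars list medians and the dotted line the median of all genes. The 8 corneal endothelial markers lie from 6.14 to 11.14, above all 6 members. The 3 stroma markers (7.20 to 9.34) and the muscle markers with a value (4.50 and 4.76) also lie above all 6.

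The tissue label was checked against marker genes. All 8 listed markers of corneal endothelium had a mean level, from 6.14 to 11.14 log2 CPM per kb, with *Col8a2* and *Car3* at 10.63 and 11.14. *Slc4a11*, at 8.39 log2 CPM per kb, is among these 8. Its level mixes WT and KO and so is no check of the label. The 3 markers of stroma were also high, from 7.20 to 9.34 log2 CPM per kb, with *Dcn* the highest. Because genes of synaptic vesicles are typical of nerve, nerve and Schwann cell markers stand beside the members. Of 11 nerve markers 3 had a mean level, namely *Gap43*, *Nefm* and *Uchl1*, at 2.70, 0.69 and 0.92 log2 CPM per kb and with a summed level of 22.3 CPM. Of 5 Schwann cell markers 4 had a mean level, from -1.59 to 2.70 log2 CPM per kb, with *Mbp* the highest. Their summed level was 60.1 CPM, of which *Mbp* gave 54.9. The other lists had medians of 1.71 for corneal epithelium (3 of 3 genes), -0.11 for iris pigment cells (5 of 5), 1.01 for leukocytes (3 of 3) and 4.63 for muscle (2 of 3). Their summed levels, in the same order, were 45.4, 18.5, 16.3 and 256 CPM. *Krt5* of the epithelium list, at 3.99 log2 CPM per kb, lay above *Sv2a*. The muscle genes *Acta2* and *Myh11*, at 4.50 and 4.76, lay above all 6 members with a value, as did the 3 stroma markers. The part of the cell types of these lists in the levels of the members was not tested. In such bulk samples the number of cells of a type and the RNA per cell cannot be told apart.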

How the data were processed

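Total RNA from CEC with Descemet membrane was sequenced as stranded, low-input, paired-end libraries with reads of 50 bases. The labels speak of membranes being pooled and the paper's methods of pairs from both corneas, with 3 males and 3 females of each genotype, which makes 12 mice for 12 libraries, so 1 mouse per library was assumed. Alignment by the authors was to GRCm38 (Hisat2). Their counts were scaled to CPM by TMM and modelled by limma-voom as a factorial of genotype and sex. The counter and the versions are not given in the sources used here. The authors deposited 3 tables of 15838 genes each, in which the mean expression is on the log2 scale (log2 CPM). The other columns hold the authors' fold changes, moderated t, p-values, adjusted p-values and log odds, and none was used. The planned limma fit was not made, because the data used here held no values per library, and no depth, spread or p-value is given.

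The mean column differed by 0 between the 3 tables. Gene lengths (union of exons) and positions came from GENCODE M21 (GRCm38), which matched 15824 of the 15838 genes. The level per kb is the mean log2 CPM minus log2 of the length in kb, and percentiles are over the 15824 genes. Coding sequences were those of the principal transcript, the longest where several were marked, aligned globally in Biopython 1.88 (Python 3.11.15). Identity is over columns with a base in both. Words of 50 bases were searched in all GENCODE M21 transcripts. Functions were tested on simulated data. Members and gene lists were chosen with earlier results of these data known. The genes named are the 8 members, *Slc4a11* and, in the vesicle lists, the 4 genes with the highest mean level. The rule also covers the marker lists, of which some genes are given only by their list's range or median. *Gm20075*, *Kcnh7*, *Gm14703*, *1500004A13Rik*, *Svop*, *Svopl*, *Vamp1* and *Vamp3* were named for their relation to a member, after values were seen.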

Additional observations from a re-analysis of the deposited data

How the results depend on the processing

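Levels per kb moved upward for all 6 members when the longest annotated transcript replaced the union of exons, most for *Syp* (to -1.98 log2 CPM per kb), *Vamp2* (to 4.97) and *Sv2b* (to -0.47), without a change in their order. The direction was fixed in advance, because the longest transcript cannot exceed the union of exons. Percentiles with that length were 71.8 for *Sv2a*, 50.9 for *Syt11*, 91.1 for *Vamp2* and 3.51 for *Syp*. The percentile of *Sv2c* was 44.8 with that length, 45.1 among genes of at least 1 CPM and 69.1 without division by length. The percentile of *Sv2b* was 15.7, 7.04 and 30.3 under the same settings. *Syp* is under 1 CPM and has no percentile in the filtered set. With genes of at least 1 CPM, the list median was 0.32 log2 CPM per kb for synaptotagmins and 0.38 for other vesicle membrane proteins, and the medians of the other 3 vesicle lists stayed the same. The mean levels were identical in all 3 tables. No paired analysis was possible because the means carry no replicate numbers, and no library could be left out for the same reason. Means over libraries of unknown depth give no precision, least of all for *Syp*.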
